A study of Mus musculus with 2 samples.

Results

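The factors described here are 8 transcription factors that give hepatocytes their identity, *Hnf4a*, *Foxa1*, *Foxa2*, *Foxa3*, *Cebpa*, *Cebpb*, *Onecut1* and *Prox1*. They were chosen by name, and the estimated read counts of all RefSeq transcripts of each symbol were summed, which gave 8 genes of the 45777 gene symbols measured. All 8 passed the filter of at least 10 counts in at least 1 library, as did 15857 genes in all. RNA came from the livers of C57BL/6 mice (C57BL/6 N in the paper) on a high-fat diet (HFD). The diet began at 7 weeks of age and lasted 18 weeks, and adeno-associated virus (AAV) was injected behind the eye after 13 weeks, 5 weeks before the end. The control mice received AAV-GFP, and the others received AAV-*Wee1-AS*, which encodes a long noncoding RNA transcribed opposite to *Wee1*. The methods give the AAV9 capsid and the CMV promoter for the *Wee1-AS* vector, neither of which is restricted to hepatocytes. Each group is represented by 1 library. The control library held 55466182 estimated counts, and that of the AAV-*Wee1-AS* mice held 48079335. The submitters write of 4 liver samples, whereas 2 libraries are analysed here, and how many mice stand behind a library is not given in the sources used here. With 1 library per group there is no spread between mice and no test, so every difference below compares 2 libraries.

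Hepatocyte genes are switched on by a small set of factors that bind each other's genes as well as those of plasma proteins, lipid carriers and metabolic enzymes. HNF4A is a nuclear receptor that the adult hepatocyte needs to keep its gene program. The FOXA proteins are pioneer factors, which open closed chromatin through a forkhead domain. The C/EBP proteins are leucine zipper factors, C/EBPα linked to metabolic genes and the resting state and C/EBPβ to the acute phase response and regeneration. ONECUT1 (HNF6) acts in hepatocytes and in the bile duct lineage. PROX1 is a homeobox factor of hepatocytes and of lymphatic endothelium that often acts as a corepressor of nuclear receptors.

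Levels were compared between genes in TPM (a transcript's share of the library scaled by its length), summed over the transcripts of a symbol. In the AAV-GFP library the order was *Cebpa* with 343 TPM, *Hnf4a* with 201, *Cebpb* with 67.8, *Foxa3* with 26.3, *Foxa2* with 21.1, *Prox1* with 5.87, *Foxa1* with 3.51 and *Onecut1* with 2.69. In the AAV-*Wee1-AS* library it was *Cebpa* with 212 TPM, *Hnf4a* with 189, *Cebpb* with 41.9, *Foxa3* with 22.8, *Prox1* with 22.4, *Foxa2* with 17.2, *Onecut1* with 7.03 and *Foxa1* with 4.61. The first 4 places were held by the same factors in both libraries, while *Prox1* stood above *Foxa2*, and *Onecut1* above *Foxa1*, only with AAV-*Wee1-AS*. The levels of *Foxa3* (21.6 to 24.0 TPM) and *Prox1* (21.8 to 23.1) overlapped there in their 95% Poisson intervals, and no other neighbors in either order did. These intervals cover counting error only.

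**Figure D1:**
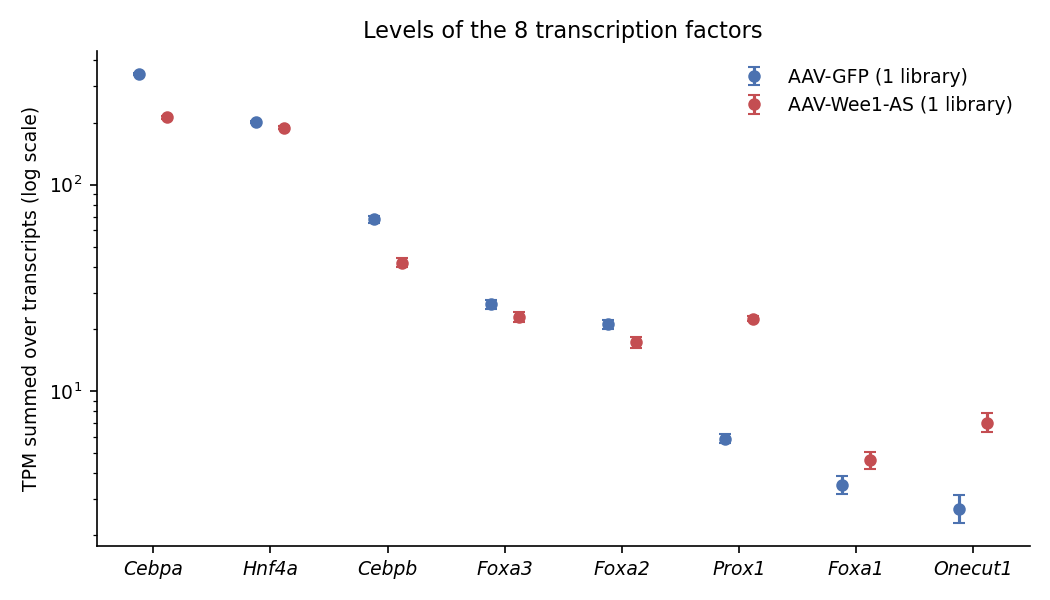
Level of each factor in TPM (vertical log axis) in the AAV-GFP library (blue) and the AAV-Wee1-AS library (red), ordered by the AAV-GFP level. Bars are 95% Poisson intervals of the counts, with 1 library per group. *Prox1* went from 5.87 to 22.4 TPM and *Onecut1* from 2.69 to 7.03, while *Cebpa* went from 343 to 212.

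Between the libraries, the difference was expressed on the log2 scale as the AAV-*Wee1-AS* value over the AAV-GFP value after scaling by edgeR's TMM method (below, the log2 ratio), with an exact (Clopper-Pearson) 95% interval that covers counting error only. *Onecut1* and *Prox1* exceeded a 2-fold higher value in the AAV-*Wee1-AS* library (2 of 8), as did 22.5% of all genes past the filter. *Prox1* was within 2-fold once the dependence of the ratio on GC content and length over all genes was taken out (0.71, called below with the trends removed) and for its leading transcript alone, and *Onecut1* with FPKM and a pseudocount of 1 (0.93). None of the 8 was below 0.5-fold, where 8.43% of all genes were. Of the 8 factors, 3 were higher and 5 lower, 4 of those 5 (all but *Cebpb*) being higher instead with the trends removed. The intervals of all 8 lay wholly on 1 side of 0 in the scaled counts, even that of *Hnf4a* at -0.05. The share of all genes with such an interval was not counted, so this is not a result particular to the factors. The median log2 ratio was -0.11 over the factors and -0.00205 over all genes. Since RNA of whole liver was sequenced, fewer cells of a type and less RNA per cell cannot be told apart.

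**Figure D2:**
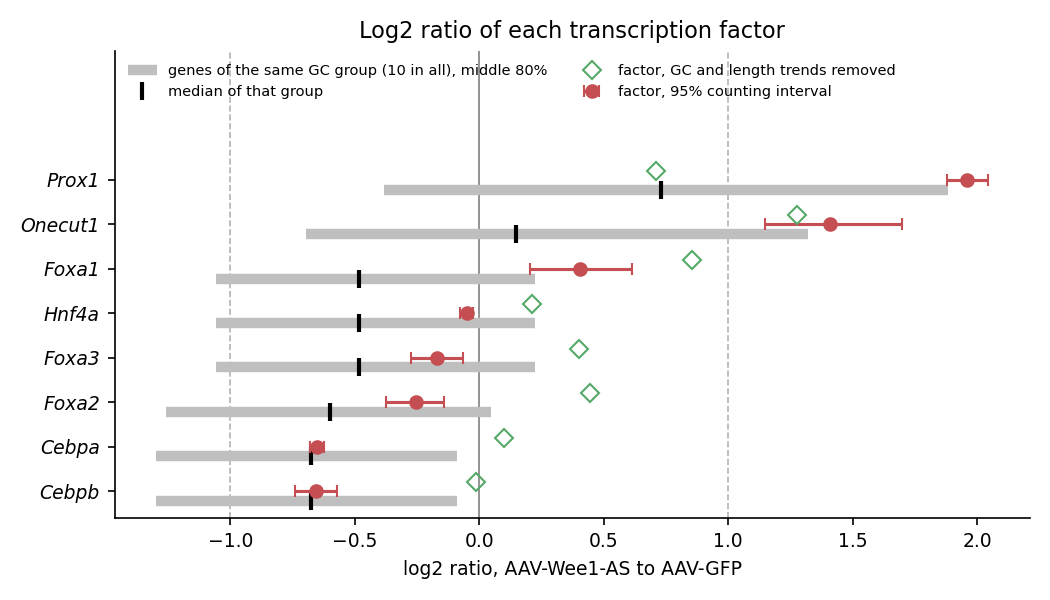
Log2 ratio (horizontal axis, AAV-Wee1-AS over AAV-GFP) of each factor as a red point with its 95% counting interval, the median (black) and middle 80% (grey) of all genes in the same of 10 GC groups, and the value with the trends removed (green). Dashed lines mark 2-fold. *Prox1*, *Onecut1* and *Foxa1* lie above the middle 80% of their group, and *Cebpa* and *Cebpb* lie close to its median. *Hnf4a*, *Foxa2*, *Foxa3* and *Cebpa* are below 0 in the scaled counts and above 0 with the trends removed.

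*Hnf4a* (chromosome 2, 163506811 to 163572907 in mm10) had 28995 estimated counts with AAV-GFP and 23096 with AAV-*Wee1-AS*. Its log2 ratio was -0.05 (-0.08 to -0.03), the smallest difference of the 8 in summed scaled counts. With the GC and length trends removed it turned to 0.21, and *Cebpb* (-0.01) and *Cebpa* (0.10) differed less. The gene has an upstream promoter, P2, used in the fetal liver and pancreas, and a downstream promoter, P1, used in the adult liver. Of the RefSeq transcripts, 3 start at P2 and 2 at P1. The P1 transcripts had 28896 and 22952 counts. The P2 transcripts had 99 counts with AAV-GFP and 144 with AAV-*Wee1-AS*, a log2 ratio of 0.80 (0.44 to 1.20). P2 therefore made up 0.341% of the *Hnf4a* counts with AAV-GFP (exact 95% interval 0.278% to 0.416%) and 0.623% with AAV-*Wee1-AS* (0.526% to 0.734%). These counts are shares that the authors' program assigned among transcripts with most exons in common. *Hnf4aos*, a noncoding gene on the opposite strand that spans P2, had 108 and 122 counts, a log2 ratio of 0.45 (0.07 to 0.84). The P2 and P1 promoters are shown because they are the start sites between which the counts were divided, from 250 bases before to 50 bases after the start (RefSeq, GRCm38.p6, plus strand, 5′ to 3′, P2 at chr2:163506607-163506906 and P1 at chr2:163546905-163547204). Capitals mark ATTGAT (a ONECUT core) and GTTAAT (an HNF1 core) on either strand.
Hnf4a P2: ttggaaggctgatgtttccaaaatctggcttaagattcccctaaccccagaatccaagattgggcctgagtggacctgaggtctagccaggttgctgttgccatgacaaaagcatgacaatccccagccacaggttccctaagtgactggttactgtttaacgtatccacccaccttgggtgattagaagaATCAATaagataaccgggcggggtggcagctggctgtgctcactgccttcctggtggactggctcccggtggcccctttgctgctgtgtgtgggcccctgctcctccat
Hnf4a P1: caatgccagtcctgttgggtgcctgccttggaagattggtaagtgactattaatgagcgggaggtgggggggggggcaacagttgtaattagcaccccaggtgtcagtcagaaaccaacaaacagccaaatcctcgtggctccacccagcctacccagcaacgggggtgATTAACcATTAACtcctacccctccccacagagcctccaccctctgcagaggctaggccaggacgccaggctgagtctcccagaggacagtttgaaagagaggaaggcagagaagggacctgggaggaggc

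The FOXA factors differed from each other. *Foxa1* had the higher value with AAV-*Wee1-AS*, while *Foxa2* and *Foxa3* had lower values that turned higher with the GC and length trends removed (0.44 and 0.40). *Foxa2* (chromosome 2, 148042877 to 148046969) had 1472 counts with AAV-GFP and 1017 with AAV-*Wee1-AS*, a log2 ratio of -0.26 (-0.37 to -0.14). *Foxa3* (chromosome 7, 19013283 to 19023539) had 1770 and 1297 counts, a log2 ratio of -0.17 (-0.28 to -0.07). *Foxa1* (chromosome 12, 57540628 to 57548029) had 379 and 415 counts, a log2 ratio of 0.41 (0.20 to 0.61). In TPM, *Foxa1* made up 6.89% of the summed level of the FOXA genes with AAV-GFP and 10.3% with AAV-*Wee1-AS*. *Foxa3* made up 51.7% and 51.1%, and *Foxa2* 41.4% and 38.6%.

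The start sites to which *Foxa1* counts were assigned differed more than the gene's sum did. Transcripts that start at the upstream sites (57546827 to 57546911) had 257 counts with AAV-GFP and 79 with AAV-*Wee1-AS*, a log2 ratio of -1.40 (-1.81 to -1.06). The transcript that starts at 57546111 had 122 and 332 counts, a log2 ratio of 1.70 (1.42 to 2.03). The upstream sites thus held 257 of 379 *Foxa1* counts in the AAV-GFP library and 79 of 415 in the other. At *Foxa2*, 3 start sites held 744, 351 and 377 counts with AAV-GFP and 570, 299 and 148 with AAV-*Wee1-AS*, and the last of them had the lowest log2 ratio of the 3, -1.06 (-1.36 to -0.79). At both genes the authors' program divided the counts among overlapping transcripts, and the intervals do not cover that division. *Ttc6*, which overlaps the upstream *Foxa1* starts on the opposite strand, had 13 and 23 counts. The library kit keeps strand, but whether the counting used it is not given in the sources used here, so reads from such a pair cannot be told apart. The *Foxa1* promoter in RefSeq is that of the start at 57546111, and it is shown because counts assigned to that start were higher with AAV-*Wee1-AS* (GRCm38.p6, minus strand, chr12:57546062-57546361). Capitals mark a match to the forkhead sequence TGTTTAC on the opposite strand, with its first base at position -141 from the start.
Foxa1: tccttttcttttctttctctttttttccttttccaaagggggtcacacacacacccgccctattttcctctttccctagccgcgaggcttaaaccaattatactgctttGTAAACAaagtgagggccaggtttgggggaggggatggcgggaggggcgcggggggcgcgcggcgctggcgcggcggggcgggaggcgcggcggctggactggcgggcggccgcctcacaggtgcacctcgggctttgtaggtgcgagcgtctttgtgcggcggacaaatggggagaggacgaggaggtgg

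*Cebpa* and *Cebpb* were lower with AAV-*Wee1-AS* by nearly the same factor, though *Cebpa* was 0.10 higher on the log2 scale with the GC and length trends removed, where *Cebpb* stood at -0.01. *Cebpa* (chromosome 7, 35119293 to 35121928) had 29763 counts with AAV-GFP and 15617 with AAV-*Wee1-AS*, a log2 ratio of -0.65 (-0.68 to -0.62). *Cebpb* (chromosome 2, 167688915 to 167690432) had 3394 and 1777 counts, a log2 ratio of -0.66 (-0.74 to -0.57). The level of *Cebpa* was 5.05 times that of *Cebpb* in TPM with AAV-GFP and 5.06 times with AAV-*Wee1-AS*. The ratio of the 2 RNAs thus differed little between the libraries. The balance of the C/EBPα and C/EBPβ proteins, which is known to shift in the regenerating liver, was not measured. RefSeq lists 5 *Cebpa* entries with the same position and length, and the division of counts among them is arbitrary. Their promoters are shown because all entries of either gene share 1 annotated start. Both are rich in CpG, with 29 and 50 CpG pairs where the median promoter has 7 (GRCm38.p6, plus strand, *Cebpa* chr7:35119043-35119342 and *Cebpb* chr2:167688665-167688964). Capitals mark TATAAA, at position -30 from the *Cebpa* start and at position 22, within the transcript, at *Cebpb*.
Cebpa: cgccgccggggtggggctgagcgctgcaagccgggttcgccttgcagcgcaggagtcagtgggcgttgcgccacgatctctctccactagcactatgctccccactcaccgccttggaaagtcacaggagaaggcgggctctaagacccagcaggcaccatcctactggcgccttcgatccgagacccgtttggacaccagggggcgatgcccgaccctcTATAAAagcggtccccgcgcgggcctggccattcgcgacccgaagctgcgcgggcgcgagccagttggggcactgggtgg
Cebpb: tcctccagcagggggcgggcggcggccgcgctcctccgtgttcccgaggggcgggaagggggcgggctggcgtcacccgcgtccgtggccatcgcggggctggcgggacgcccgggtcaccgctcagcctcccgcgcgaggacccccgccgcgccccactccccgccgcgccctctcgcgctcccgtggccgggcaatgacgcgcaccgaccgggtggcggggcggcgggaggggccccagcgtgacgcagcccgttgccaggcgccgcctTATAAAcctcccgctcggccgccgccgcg

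Immediate early and stress genes, which respond to many of the signals that act on *Cebpb*, stood mostly on the same side in scaled counts. Of 12 tested, 11 were lower and 5 were below 0.5-fold (8.43% of all genes were), with a median log2 ratio of -0.59. With the trends removed, 6 were higher and 6 lower, 4 of these below 0.5-fold (8.66% of all genes were), with a median of -0.04. *Fosb* had 142 counts with AAV-GFP and 13 with AAV-*Wee1-AS*, *Gadd45b* had 106 and 12, and *Egr1*, at 0.27, was the 1 higher gene in scaled counts. Of 6 neutrophil markers, cells in which C/EBPβ is also made, 4 passed the filter and 3 of these were lower. Below 0.5-fold were 2 of the 4 (8.43% of all genes were), and 2 with the trends removed (8.66% were). The median was -0.85, and with the trends removed all 4 markers were lower, with a median of -1.30. Their summed level was 13.1 TPM and 6.30 TPM, with *Ly6g* at 0 in both libraries, and the part of these cells in the *Cebpb* value was not tested.

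*Onecut1* (chromosome 9, 74861921 to 74889648) was the lowest of the 8 factors with AAV-GFP and was higher with AAV-*Wee1-AS*. It had 162 counts and 358 counts, a log2 ratio of 1.41 (1.15 to 1.70), or 2.66-fold. RefSeq gives it a single transcript here. Its interval was the widest of the 8, set by the 162 counts of the AAV-GFP library. *Gm38678*, which lies within the gene, had 10 and 28 counts. Its paralog *Onecut2* was 2.59 higher on the log2 scale, with 385 and 1921 counts, and 0.63 higher with the trends removed, and *Onecut3* was listed at 0 in both libraries. The bile duct lineage also makes ONECUT1. Of 8 cholangiocyte markers, 3 were higher and 5 lower, with *Krt19* at 72 and 37 counts and *Sox9* at 96 and 140. None was above 2-fold or below 0.5-fold, where 22.5% and 8.43% of all genes were. Once the trends were removed, 6 markers were higher and 2 lower, 1 of them below 0.5-fold (*Spp1*, -0.20 in scaled counts and -1.03 here). Of all genes, 8.66% were then below 0.5-fold. The median of the markers turned from -0.11 to 0.16, and *Krt19* stood at 0.08. Their summed level was 53.7 TPM with AAV-GFP and 47.4 TPM with AAV-*Wee1-AS*, of which *Spp1*, also made by other cells, held 40.4 and 34.3.

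*Prox1* (chromosome 1, 190118035 to 190170827) had the highest ratio of the 8 in scaled counts, while *Onecut1* (1.28) and *Foxa1* (0.86) stood above it with the trends removed. It had 1537 counts with AAV-GFP and 4937 with AAV-*Wee1-AS*, a log2 ratio of 1.96 (1.88 to 2.04), or 3.89-fold, and 0.71 with the GC and length trends removed. *Cebpa* counts, not scaled by length, were 19.4 times those of *Prox1* with AAV-GFP and 3.16 times with AAV-*Wee1-AS*. The log2 ratios of *Cebpa* and *Prox1* lay closer together with the trends removed (0.10 and 0.71). The transcript with the most counts over both libraries alone had a log2 ratio of 0.71. All start sites of the gene were higher. Those at 190170819 to 190170827 had 1097 and 2617 counts (log2 ratio 1.53), and those at 190169515 to 190169603 had 440 and 1262 (1.79). The start at 190170231 had 0 counts with AAV-GFP and 1058 with AAV-*Wee1-AS*. With overlapping transcripts, a 0 there can be a choice of the assigning program, since the start lies between the other sites. The upstream and downstream *Prox1* promoters are shown because counts were divided between them (GRCm38.p6, minus strand, chr1:190170778-190171077 and chr1:190169466-190169765). Capitals mark TGTTTGC, a forkhead sequence, at position -120 from the downstream start.
Prox1 upstream: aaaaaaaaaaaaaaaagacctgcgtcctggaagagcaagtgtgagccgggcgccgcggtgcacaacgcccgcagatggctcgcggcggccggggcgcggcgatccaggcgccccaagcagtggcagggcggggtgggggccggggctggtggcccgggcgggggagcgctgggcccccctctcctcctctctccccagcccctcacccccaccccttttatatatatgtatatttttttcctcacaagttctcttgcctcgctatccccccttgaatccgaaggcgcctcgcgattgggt
Prox1 downstream: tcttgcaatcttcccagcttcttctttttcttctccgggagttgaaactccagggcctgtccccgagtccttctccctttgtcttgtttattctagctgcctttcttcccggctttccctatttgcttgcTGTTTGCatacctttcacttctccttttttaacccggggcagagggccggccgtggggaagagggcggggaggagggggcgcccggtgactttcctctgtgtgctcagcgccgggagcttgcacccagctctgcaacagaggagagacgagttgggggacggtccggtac

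PROX1 is also the identity factor of lymphatic endothelium, and whole liver holds such vessels. Of 6 lymphatic endothelium markers, 2 were higher and 4 lower, with a median log2 ratio of -0.32, and their summed level was 33.6 TPM with AAV-GFP and 28.6 TPM with AAV-*Wee1-AS*. *Flt4* had 2829 and 1576 counts, *Pdpn* 22 and 6, *Ccl21a* 49 and 16, *Lyve1* 563 and 440, *Reln* 3951 and 3913, and *Mmrn1* 6 and 30. The list had 1 higher and 5 lower genes with the trends removed, with a median of -0.47, *Reln* turning from 0.26 to -0.36, *Mmrn1* going from 2.23 to 0.98 and *Ccl21a* from -1.25 to -0.55. *Lyve1*, *Flt4* and *Reln* are also made by other cells of the liver. *LOC102632463*, which overlaps the start of *Prox1*, had 234 and 154 counts.

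**Figure D3:**
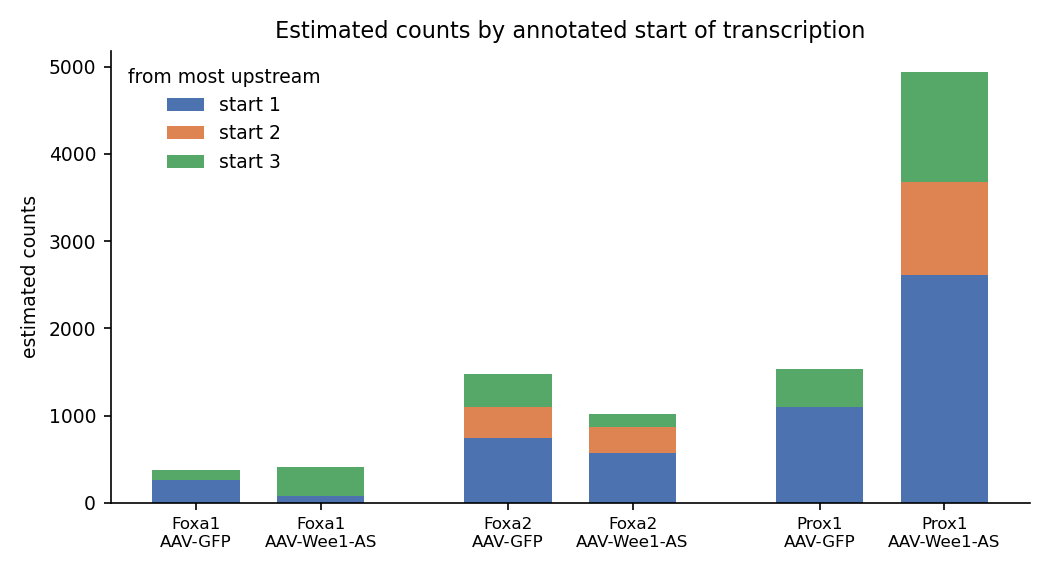
Estimated counts (vertical axis, stacked) by annotated start of transcription, from the most upstream (start 1) to the most downstream (start 3), for *Foxa1*, *Foxa2* and *Prox1* in either library. The start in the middle of *Prox1* has 0 counts with AAV-GFP and 1058 with AAV-Wee1-AS, and the upstream starts of *Foxa1* have 257 and 79. The sum of *Foxa2* is lower with AAV-Wee1-AS here and higher with the trends removed.

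The ratios of the 8 factors followed their GC content. *Prox1*, with the lowest GC content (45.3% of its longest transcript), had the highest ratio, *Onecut1* (49.7%) came next, and *Cebpa* (62.6%) and *Cebpb* (67.2%) had the lowest. Spearman's rho was -0.976 over the 8 factors, which share both libraries, and -0.673 over 14995 genes with a GC value. Over all genes in 10 groups of GC content, the median log2 ratio went from 1.44 (31.0% to 41.6% GC) to -0.68 (57.7% to 72.8%), and 65.6% of genes in the former group were above 2-fold but 1.20% in the latter. Measured against the median of its own group, *Onecut1* stood 1.26 higher, *Prox1* 1.23 and *Foxa1* 0.89, while *Hnf4a* (0.43), *Foxa2* (0.35) and *Foxa3* (0.31) were closer and *Cebpa* and *Cebpb* were both 0.02 from it. With the trends removed, 7 of 8 factors were higher, with a median of 0.42, and *Onecut1* alone stayed past 2-fold, where 15.9% of all genes were. The GC content and length used for *Onecut1* are those of a GENCODE transcript of 3957 bases, whereas its counted RefSeq transcript has 1824. Other features of RNA composition differed too. Mitochondrially encoded genes were higher for 10 of 13 (median 1.16), but none had a GC value, so the trends could not be removed for them. Ribosomal protein genes were lower for 69 of 87 (median -0.47, and 49 of 87 with a median of -0.14 with the trends removed). Both nuclear-retained RNAs past the filter were above 2-fold, where 22.5% of all genes were (median 4.08, and 2.61 with the trends removed). The part of these in the factors' ratios was not tested.

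**Figure D4:**
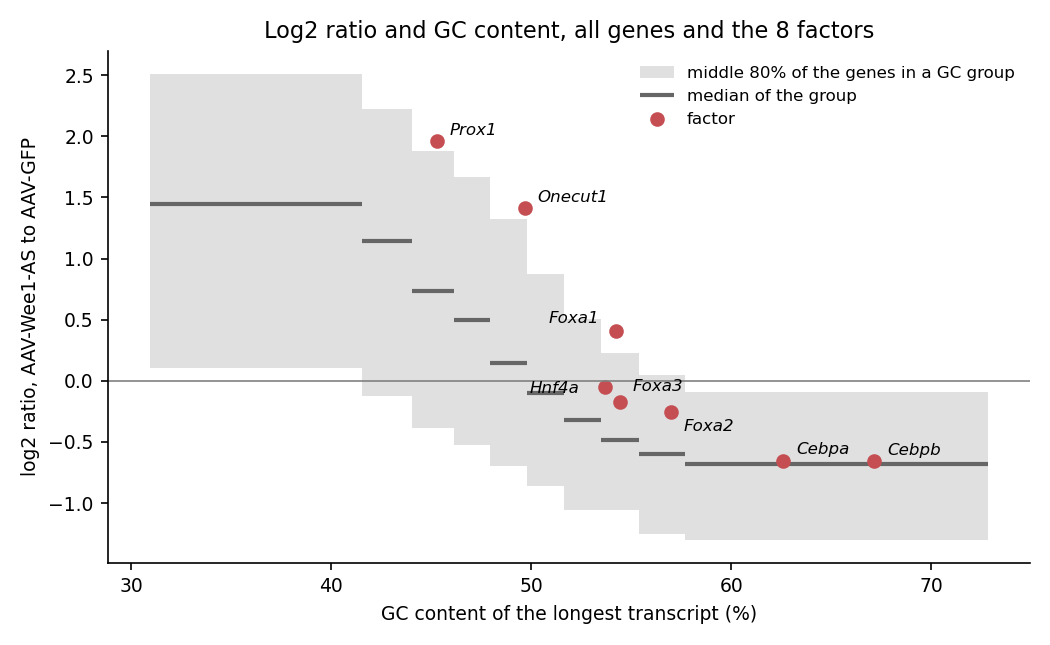
Log2 ratio (vertical axis, AAV-Wee1-AS over AAV-GFP) against GC content of the longest transcript in percent (horizontal axis), with the median (line) and middle 80% (grey) of the genes in each of 10 GC groups and the 8 factors as red points. The factors run from *Prox1* at 45.3% GC to *Cebpb* at 67.2%, and *Hnf4a*, *Foxa2*, *Foxa3* and *Cebpa*, which are below 0 here, are above 0 with the trends removed.

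All 8 factors had an entry in the RefSeq promoters, 12 windows in all. The sequences searched were the forkhead sequences TGTTTAC and TGTTTGC, the C/EBP sequence TTGCGCAA, the HNF4 sequence CAAAGTCC, the HNF1 core GTTAAT, the ONECUT core ATTGAT and the nuclear receptor core AGGTCA on both strands, and TATAAA on the sense strand. TATAAA was in 3 of the 12 windows, those of *Cebpa*, *Cebpb* and *Foxa3*, and in 8.32% of all 32851 promoters of that length. GTTAAT and ATTGAT were in 2 each, against 7.10% and 7.54% of all promoters. TGTTTAC was in 1 (3.65% of all) and TGTTTGC in 1 (5.07%). TTGCGCAA (0.183%), CAAAGTCC (1.42%) and AGGTCA (16.3%) were in none of the 12.

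Other paralogs and partners of the factors were taken from fixed lists. Of 8 paralogs, 6 passed the filter, 2 were higher and 4 lower, with a median of -0.33, which was 0.21 with the trends removed. *Cebpg*, a C/EBP protein without a strong activation domain, had 719 and 1620 counts, while *Cebpd* had 520 and 191, *Cebpe* 512 and 295, *Ddit3* 250 and 159 and *Prox2* 152 and 103. *Cebpg* went from 1.45 to 0.29 with the trends removed, and *Cebpe* (-0.51 to 0.30) and *Prox2* (-0.28 to 0.13) turned direction. *Hnf4g* was listed at 0 in both libraries. Of 22 other hepatocyte-enriched factors, 12 were higher and 10 lower, with a median of 0.19, and 5 were above 2-fold and 1 below 0.5-fold, where 22.5% and 8.43% of all genes were. *Nr5a2*, a nuclear receptor held in check by PROX1, had 815 and 2184 counts (1.70), *Zbtb20* 298 and 833 (1.75), and *Ppara* 15638 and 22836 (0.82). With the trends removed these stood at 0.53, -0.32 and 0.99, so that *Zbtb20* turned to the lower side. *Atf5* had 32376 and 11894 counts (-1.17), *Klf15* 8123 and 4061 (-0.72) and *Creb3l3* 23985 and 14053 (-0.49, but 0.16 with the trends removed). *Atf5* then stood at -0.34 and *Klf15* at -0.16. Of the 22, 17 were then higher and 5 lower. Above 2-fold was then 1 of them and below 0.5-fold 0, where 7.21% and 8.66% of all genes were.

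Of 13 coregulators that act with the factors, 10 were higher and 3 lower, 6 of them above 2-fold (22.5% of all genes were), with a median of 0.91. With the trends removed, 9 were higher and 4 lower, with a median of 0.36. None of those 6 was then past 2-fold, and *Ppargc1b* was (1.28), as were 15.9% of all genes. *Ncoa2*, a coactivator, had 613 and 1699 counts, and *Ncor1*, the corepressor that carries HDAC3, had 1432 and 3782 (0.87 and 0.82 with the trends removed). *Nr0b2* (SHP), a corepressor that acts on HNF4A and is induced by bile acids, had 2304 and 872 counts, a log2 ratio of -1.12 that became -0.38 with the trends removed, and the only value of the 13 below 0.5-fold in scaled counts. *Hdac3*, the deacetylase of that complex, had 2441 and 1677 counts (-0.26, and -0.71 with the trends removed).

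Genes that the factors are known to bind in liver were divided between higher and lower. Over the lists for HNF4A, FOXA, C/EBP and ONECUT1 together, 36 of 37 genes were found under the symbol listed and passed the filter (*Tf* was not looked up under its mouse symbol and is not analysed here), 21 were higher and 15 lower, with a median of 0.21. Of the HNF4A-bound genes, 12 of 22 were higher. *Cyp7a1*, the rate-limiting enzyme of bile acid synthesis and a gene on which PROX1 acts as corepressor, had 486 and 2362 counts (2.55). *Apob*, the protein of very low density lipoprotein, had 71263 and 209460 (1.83), and *F9*, a clotting factor, had 2546 and 7949 (1.92). *Apoa4*, a lipoprotein of chylomicrons that liver makes under fat load, had 335069 and 44701 counts, a log2 ratio of -2.63. *Apoc3* stood at -0.66 and *Apoa2* at -0.50, and both lost this direction with the trends removed (0.08 and 0.00247). *Apob* then stood at 0.07, *F9* at 0.70, *Cyp7a1* at 1.15 and *Apoa4* at -1.88.

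Of 8 FOXA-bound genes 4 were higher, with *Tdo2* at 16398 and 49900 counts (1.88, and 0.58 with the trends removed) and *Igfbp1* at 1832 and 697 (-1.11, and -0.89). Of 15 C/EBP-bound genes 12 were higher, 3 of them above 2-fold and none below 0.5-fold, where 22.5% and 8.43% of all genes were. *Cebpa* and *Cebpb* themselves were lower in scaled counts, and stood at 0.10 and -0.01 with the trends removed. *Cps1*, the entry enzyme of the urea cycle, had 63481 and 122243 counts (1.22, and 0.43 with the trends removed), while *Hp*, an acute phase protein, had 340818 and 200321 (-0.49, but 0.20 with the trends removed) and *Tat* stood at -0.49 (-0.46 with the trends removed). Of 7 ONECUT1-bound genes 5 were higher, with *Cyp7a1* and *Tdo2* above 2-fold and none below 0.5-fold, where 22.5% and 8.43% of all genes were. The 6 of 36 bound genes above 2-fold (22.5% of all genes were), *Apob*, *Cps1*, *Cyp7a1*, *F9*, *Otc* and *Tdo2*, all had a GC content of at most 46.6%. With the trends removed, 25 of the 36 were higher, 1 was above 2-fold (*Cyp7a1*, where 7.21% of all genes were) and 2 were below 0.5-fold (*Apoa4* and *Slc2a2*, where 8.66% were). *Slc2a2* turned from 0.26 in scaled counts to -1.23.

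**Figure D5:**
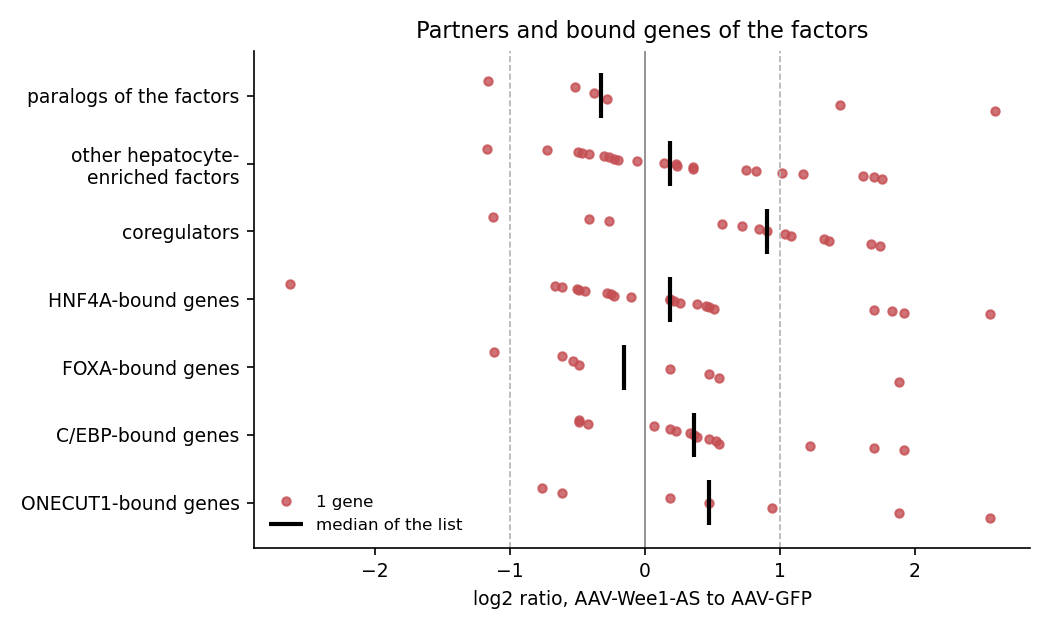
Log2 ratio (horizontal axis, AAV-Wee1-AS over AAV-GFP) of each gene (point) in 7 fixed lists, with the median of each list (black line) and dashed lines at 2-fold. The coregulators have a median of 0.91, and every list has genes on both sides of 0. The median of the paralogs is -0.33 here and 0.21 with the trends removed.

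The defining genes of liver tissue were abundant in both libraries. All 10 hepatocyte markers passed the filter and summed to 85219 TPM with AAV-GFP and 95413 with AAV-*Wee1-AS*, of which *Alb* made up 37459 and 53289. Of the 10, 6 were higher and 4 lower, *Apob* and *Cps1* above 2-fold (22.5% of all genes were) and *Ttr* lowest with 536296 and 289753 counts (-0.61). Of these 10, 7 were higher and 3 lower with the trends removed, and 0 were past 2-fold, where 15.9% of all genes were. The summed level of the 8 factors was 671 TPM and 517 TPM, and *Cebpa* (343 and 212 TPM), whose log2 ratio was 0.10 with the trends removed, made up most of that difference. Sinusoidal endothelial markers summed to 180 and 154 TPM. Kupffer cell and macrophage markers summed to 292 and 287 TPM, with 5 of 8 higher and 3 lower, *Marco* (1.62) and *Vsig4* (1.53) highest and *Cd68* (-0.86) and *Csf1r* (-0.39) lowest. These stood at 2.21, 0.88, -0.39 and -0.14 with the trends removed. Stellate cell markers summed to 164 and 129 TPM, with 3 of 7 higher and 4 lower. Among them *Col1a1* stood at -2.30, *Col3a1* at -2.01, *Dcn* at 0.35 and *Lrat* at 1.48, and with the trends removed at -2.02, -2.02, -1.18 and 0.05. The part of these cells in the values of the factors was not tested.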

How the data were processed

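Polyadenylated RNA of whole liver was sequenced with a stranded kit in 2 libraries, 1 per group. The authors deposited 1 table of 129299 RefSeq transcripts on mm10 with estimated read counts, FPKM values and TPM values per library. The submitters' processing notes name Trimmomatic 0.38, HISAT2 2.1.0, SAMtools 1.9 and StringTie 2.1.3b. The deposited estimated counts were whole numbers that followed the authors' FPKM times transcript length within 1 count for 99.9% of transcripts in either library. The deposited TPM values were used to compare levels between genes, and the deposited FPKM values for an alternative.

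Counts were summed per symbol, and 15857 genes that reached 10 counts in either library were kept. Libraries of 55466182 and 48079335 counts were scaled by TMM (edgeR 4.0.16, factors 1.03 and 0.975), and log2 ratios used a prior count of 2. The exact 95% intervals (Clopper-Pearson) cover counting error only. They treat counts as independent molecules, which PCR reads and counts shared out among transcripts are not, so they can be too narrow. A floor of 3 counts served for bounds on ratios where 1 library had 3 or fewer. With 1 library per group no test was run. GC content and length of the longest GENCODE transcript (GRCm38) were available for 14995 genes (94.6%), and their trends were removed by lowess (span 0.3, 5 cycles, statsmodels 0.14.6). Alternatives were DESeq2 1.42.0 size factors, upper quartile scaling, library totals, a prior count of 0.5, no count filter, 10 counts in both libraries, FPKM or TPM with a pseudocount of 1, the leading transcript alone and removal of the trends. The TMM scaling, the log2 ratio, its interval and the removal of a GC trend were tested on simulated data. Promoter sequences came from RefSeq (GRCm38.p6).

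The factors and gene lists were chosen with earlier results of these data known. Named are all 8 factors, the genes that overlap them, all paralogs, and in each list the 2 most abundant genes by TPM and the 2 highest and 2 lowest log2 ratios among genes with at least 100 counts. Some further genes (*Ppara*, *Krt19*, *Ly6g*, *Afp*, *Gpc3*, *Igf2*, *Ppargc1b*, *Slc2a2* and the less abundant lymphatic markers) were named after their values were seen. Some genes that this rule names are not reported here.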

Additional observations from a re-analysis of the deposited data

How the results depend on the processing

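With 1 library per group, neither leaving out a replicate nor a test could be run, and the intervals hold no spread between mice. No paired analysis was possible because each group had 1 library. Of the results for the factors under the alternatives, 52 stayed within the margin set by the counting interval, 24 moved beyond it and 4 turned direction. The median turned direction for 3 lists, the paralogs and the cholangiocyte markers (-0.11 to 0.16) with the trends removed and the Kupffer cell markers (0.11 to -0.02) with upper quartile scaling. Upper quartile scaling shifted the median of all genes by -0.13 and gave the factors a median of -0.24. With FPKM and a pseudocount of 1, 1 factor was past 2-fold, since *Onecut1* then stood at 0.93. Of all genes, 6.49% were above 2-fold and 1.94% below 0.5-fold with that setting. With the trends of the ratio with GC content and length removed, 1 factor was past 2-fold, the median of the factors was 0.42, and *Hnf4a* (0.21), *Foxa2* (0.44), *Foxa3* (0.40) and *Cebpa* (0.10) were higher in place of lower, as was the median of the paralogs (0.21). The share of all genes above 2-fold was then 7.21% and below 0.5-fold 8.66%, against 22.5% and 8.43%. The transcript with the most counts over both libraries gave *Foxa1* 1.73, though another led in the AAV-GFP library, and *Prox1* 0.71. The cause of these shifts was not tested.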

Other observations

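Genes of fetal or dedifferentiated hepatocytes had low counts in both libraries. Of 6 on the list, 5 passed the filter, of which 2 were higher and 3 lower with AAV-*Wee1-AS*, with a median log2 ratio of -0.53. With the GC and length trends removed 1 was higher and 4 were lower, with a median of -0.96. *H19*, an imprinted noncoding RNA of the fetal liver, had 187 counts with AAV-GFP and 33 with AAV-*Wee1-AS* (-2.16, and -1.53 with the trends removed), *Gpc3* had 72 and 27 (-1.09, and -1.28), and *Afp* had 64 and 36 (-0.53, with an interval of -1.18 to 0.06). *Cd24a* had 107 and 95 (0.10, but -0.76 with the trends removed) and *Igf2* 29 and 25 (0.06). Of 10 markers of pancreas and intestine, the other organs in which several of the 8 factors act, 6 were listed at 0 in both libraries and 2 passed the filter. *Fabp2*, a fatty acid binding protein of the intestine, had 5088 and 4717 counts (0.17, but -0.78 with the trends removed), and *Lgals4* had 126 and 318 (1.60, and 2.13 with the trends removed).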
